A study of Mus musculus with 9 samples.

Results

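The genes described here are 40 mouse genes of the ATF4 amino acid response, found among the 46603 gene identifiers of the count files by their symbols in a list drawn up with earlier results of these data known. They comprise 8 transcription factors and regulators, 6 enzymes of serine and mitochondrial one-carbon metabolism, 7 other enzymes of amino acid metabolism, 5 amino acid transporters, 11 genes of tRNA charging and export, and 3 other targets. Of the 40, 39 passed the filter on low counts and were tested. Cbs, the enzyme that makes cystathionine, did not: it had 1, 1 and 4 counts after poly(I:C), 8, 12 and 10 after poly(dA:dT), and 10, 1 and 8 in mock cells.

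RNA sequencing profiled mouse embryonic fibroblasts (MEFs) of the BALB/c strain, taken from embryos of 10.5 days and carrying a knockout of Actb, the gene of β-actin. The cells were given poly(I:C), which mimics viral double-stranded RNA, or poly(dA:dT), which mimics viral DNA, each at 10 µg/ml, or only the transfection reagent (mock). The reagent was Lipofectamine 2000 in Opti-MEM, cells were treated for 6 h, and each group held 3 libraries. All 3 groups are labelled as carrying the Actb deletion and all received the lipid, so values below compare a mimic with lipid alone in Actb-knockout cells, and wild-type or untouched cells were not analysed here. Whether the cells are 1 clone, and whether replicates came from separate cultures, is not in the labels. The p-values therefore rest on sample-to-sample spread alone, and that spread may be technical.

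ATF4 is a transcription factor whose mRNA is translated better when the initiation factor eIF2 is phosphorylated by 1 of its kinases, among them GCN2, which senses uncharged tRNA, PERK, which senses misfolded protein in the endoplasmic reticulum, and PKR, which binds double-stranded RNA. With C/EBP partners it binds composite sites in the promoters of genes that import amino acids, make them and load them onto tRNAs. ATF3, CHOP (Ddit3) and TRIB3 are made downstream of it, and CHOP and TRIB3 in turn modify its output.

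The promoter sequences that bear on these genes are shown first, because several members hold the letters of the composite site near a RefSeq start. In the RefSeq promoter windows of build GRCm38.p6, from 250 bases before to 50 bases after a gene's start, 32 of the 40 members had an entry (Aldh1l2, Cth, Eif4ebp1, Slc7a5, Slc7a3, Wars, Nars and Lars did not). The motif TGATGNAA, the amino acid response element that ATF4 and C/EBP proteins share, was searched on both strands, where its reverse complement reads TTNCATCA. It occurred in 12 of the 32 members (37.5%), against 4.51% of the 27025 genes in the table and 3.97% of its 32851 promoters. The members were listed as genes of the response that the element is named for, so these shares are a description and not a test. Below are windows of 30 bases around the match in 6 members whose values are described in detail or that stand for their group, each written 5′ to 3′ on the strand of the gene with the match in capitals.
Atf3, chr1:191183425-191183454, minus strand: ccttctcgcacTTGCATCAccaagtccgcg
Trib3, chr2:152344028-152344057, minus strand: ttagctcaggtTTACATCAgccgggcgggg
Chac1, chr2:119351038-119351067, plus strand: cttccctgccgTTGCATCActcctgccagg
Asns, chr6:7693214-7693243, minus strand: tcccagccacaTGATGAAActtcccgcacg
Iars, chr13:49682126-49682155, plus strand: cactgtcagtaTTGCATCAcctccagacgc
Nupr1, chr7:126625562-126625591, minus strand: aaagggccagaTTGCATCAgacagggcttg
The sequences are those of the C57BL/6J reference, whereas the cells are BALB/c. In these lines Atf3, Chac1, Iars and Nupr1 share the 8 letters TTGCATCA, while Trib3 and Asns differ from it at the variable position of the motif. The other members with a match were Aars (at 2 places), Gars, Pycr1, Tars, Vldlr and Yars. The form TGATGCAA, chosen after the matches were seen, occurred in 9 members and in 1.03% of all genes in the table. By role, the element lay in 3 of 8 regulators, 5 of 8 tRNA genes with an entry, 3 of 6 other enzymes and 1 of 2 other targets, and in none of the 5 serine and one-carbon enzymes or 3 transporters with an entry. A match is a description of letters, and no match says only that these letters are not in the window. The 32 members had 38 windows, and starts without a window were not searched.

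The element lay at different distances from the RefSeq start. Its first base was 193 bases upstream in Chac1 and 110 bases upstream in Atf3 and Nupr1, but 14 bases downstream of the start in Trib3 and 7 in Iars. The 250 bases upstream of Chac1 and Atf3 are printed because these were the enzyme and the factor with the largest changes, and those of Slc3a2 because it changed most among the transporters and held no match in its window to any motif searched. The windows of Atf3, Nupr1 and Slc3a2 lie at a RefSeq start inside the GENCODE gene. On the minus strand these genes begin further upstream, at bases 191218039, 126630861 and 8723369.
Chac1 upstream window, chr2:119350992-119351241, plus strand: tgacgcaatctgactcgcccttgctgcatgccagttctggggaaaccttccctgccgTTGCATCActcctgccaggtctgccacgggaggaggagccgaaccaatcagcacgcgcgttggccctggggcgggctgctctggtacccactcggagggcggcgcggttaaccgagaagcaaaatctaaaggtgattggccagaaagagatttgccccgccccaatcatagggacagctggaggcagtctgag
Atf3 upstream window, chr1:191183334-191183583, minus strand: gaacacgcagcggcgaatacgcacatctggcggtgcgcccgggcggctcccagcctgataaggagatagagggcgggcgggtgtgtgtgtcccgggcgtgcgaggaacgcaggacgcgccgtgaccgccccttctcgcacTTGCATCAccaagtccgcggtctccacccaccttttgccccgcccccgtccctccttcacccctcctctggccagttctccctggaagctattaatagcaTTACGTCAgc
Slc3a2 upstream window, chr19:8713898-8714147, minus strand: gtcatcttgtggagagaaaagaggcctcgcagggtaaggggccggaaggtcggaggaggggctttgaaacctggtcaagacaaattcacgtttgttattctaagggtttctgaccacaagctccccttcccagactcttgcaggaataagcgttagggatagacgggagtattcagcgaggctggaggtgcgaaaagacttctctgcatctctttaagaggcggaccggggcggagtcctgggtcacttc
In the Atf3 sequence the second run of capitals, close to the start, matches TGACGTNA, the site of CREB and ATF proteins, on the opposite strand (TTACGTCA). That motif occurred in 1 of the 32 members, Atf3, and in 3.36% of all genes in the table. The endoplasmic reticulum stress element, a CCAAT box spaced from a CCACG, searched on both strands, occurred in 0 of the 32 members and in 0.137% of all genes.

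Counts assigned to genes totalled 16082772 to 22382837 per library after poly(I:C), 20738109 to 23185293 after poly(dA:dT), and 19826550 to 29219797 in mock cells. Values are given as CPM, the count relative to the library size after TMM scaling, or, to compare genes, as RPKM, the same per kilobase of annotated exon. Actb averaged 32.4 ± 1.34 CPM after poly(I:C), 30.6 ± 1.29 CPM after poly(dA:dT) and 33.3 ± 1.29 CPM in mock cells (SD, n = 3 each), and passed the test in none of the 3 comparisons; no source used here gives the deleted stretch, so this level does not check the knockout. Ifit1, an interferon-stimulated gene, averaged 1176 CPM after poly(I:C), 124 CPM after poly(dA:dT) and 1.29 CPM in mock cells. The 8 fibroblast markers were all detected, with summed levels of 6443 to 6743 CPM after poly(I:C), 7235 to 7355 CPM after poly(dA:dT), and 7487 to 7654 CPM in mock cells. Summed markers of 5 other cell types reached at most 409 CPM per list (neural cells, mock), and Ptprc, Emcn, Sox2, Myod1 and Ckm had 0 counts in all 9 libraries. The 6 endothelial markers summed to 4.74 to 4.83 CPM after poly(I:C), 2.74 to 3.25 CPM after poly(dA:dT) and 0.789 to 1.11 CPM in mock cells. The part of these shifts in the results below was not tested. In bulk RNA, fewer cells of a type and less RNA per cell cannot be told apart.

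Most of the 39 tested genes were higher after poly(I:C) than in mock cells, and most by little. By edgeR's quasi-likelihood test with Benjamini-Hochberg adjustment at 0.05, 27 were higher and 9 lower, with Atf5, Mthfd2 and Pycr1 not past the threshold. The background was large: of the 14176 genes tested, 76.1% passed the test in this comparison, 39.8% higher and 36.3% lower, against 69.2% and 23.1% of the members. The median log2 fold change of the members was 0.16, beside 0.04 for all genes tested. With no filter on low counts it was 0.133, beside 0.15 for all genes, and by DESeq2 0.135, beside 0.16. Only Atf3, Chac1, Stc2, Slc3a2 and Trib3 rose at least 2-fold, 5 of 39, where 13.1% of all genes did. In 36 of the 39 members the CPM values of the 2 groups did not overlap, against 76.8% of all genes.

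After poly(dA:dT), 24 of the 39 members were higher and 5 lower than in mock cells by the same test. Over all genes 52.8% passed the test, 26.6% higher and 26.2% lower, against 61.5% and 12.8% of the members. The members' median log2 fold change was 0.14, beside 0.01 for all genes, and Atf3, Chac1, Trib3 and Stc2 rose at least 2-fold, 4 of 39, where 3.84% of all genes did. Of these, Stc2 had few counts, overlapped mock in CPM and was not called by DESeq2 (1.16). The CPM values did not overlap in 29 members, against 57.3% of all genes. Without mock replicate 2, poly(dA:dT) replicate 1 or poly(dA:dT) replicate 2, 3 members were called lower, not 5. All genes tested in these fits gave 3452 of 14420, 3485 of 14536 and 3421 of 14415 lower. Both comparisons use the same 3 mock libraries and are given side by side, not as 2 independent results. When libraries were scaled to their total counts, which moved the median of all genes by 0.11 after poly(I:C) and 0.07 after poly(dA:dT) on the log2 scale, 29 members were higher and 4 lower after poly(I:C), where 47.2% of all genes tested were higher and 28.7% lower. After poly(dA:dT) 29 members were then higher and 2 lower, where 35.3% of all genes tested were higher and 16.9% lower.

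**Figure D1:**
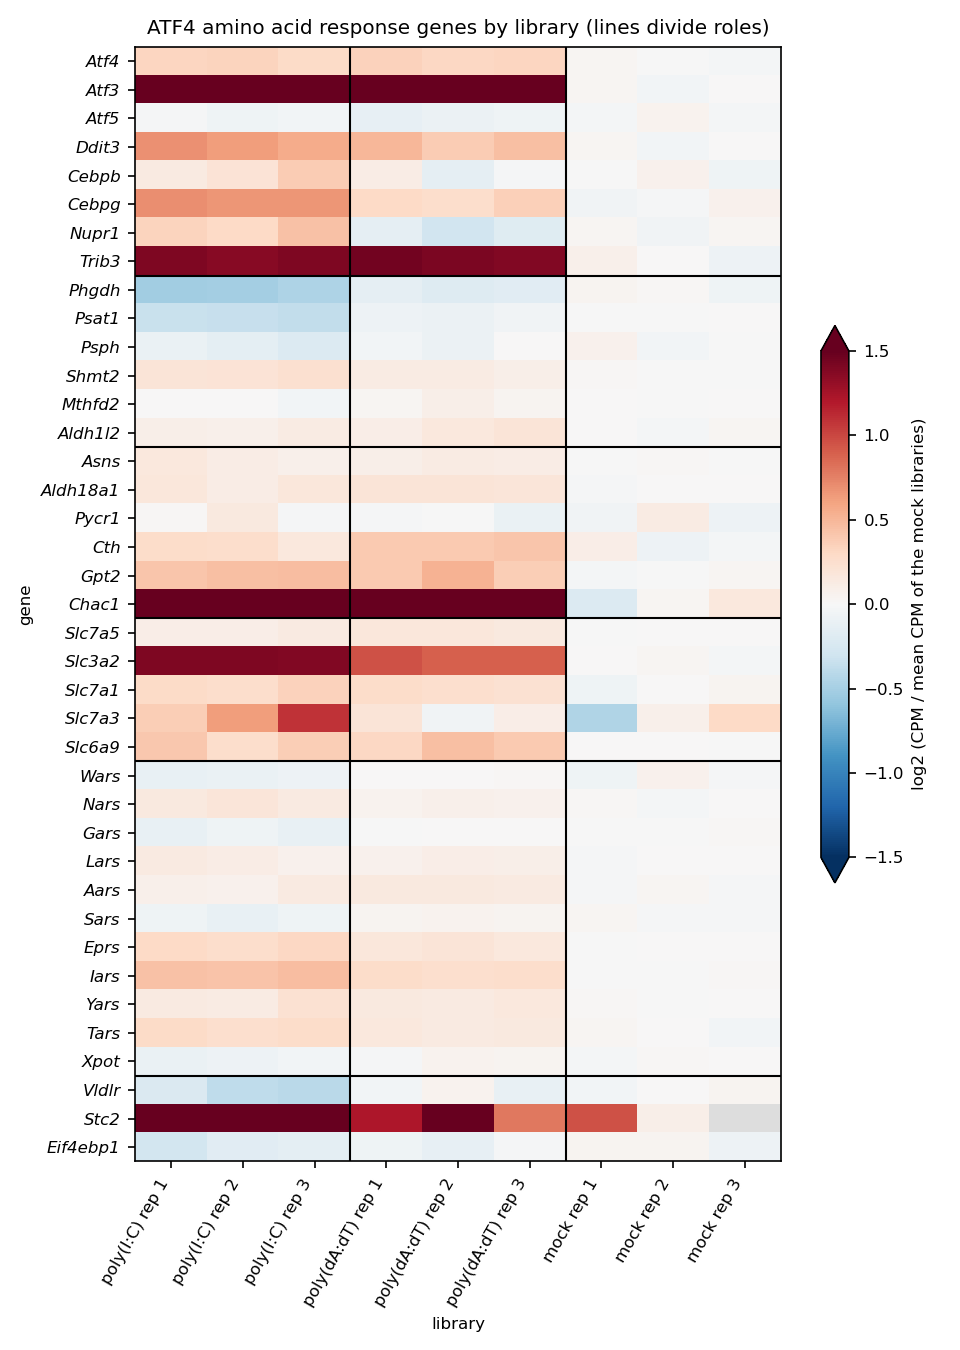
Level of each of the 39 tested genes in each of the 9 libraries, as the log2 of its CPM over the gene's mean in the mock libraries (colours saturate at the ends of the scale bar, grey where the count is 0), with poly(I:C) libraries at left, poly(dA:dT) libraries in the middle and mock libraries at right, and genes grouped by role. Atf3, Trib3, Chac1 and Slc3a2 stand out as high in all libraries of both mimics, while Phgdh and Psat1 are lowest after poly(I:C), and the sparse counts of Slc7a3 and Stc2 vary between replicates.

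Among the transcription factors and regulators, 7 of 8 were higher after poly(I:C) and none lower (median log2 fold change 0.49), and 5 were higher and 2 lower after poly(dA:dT) (median 0.32). In percent, 87.5% were higher after poly(I:C), where 39.8% of all genes tested were higher and 36.3% lower. After poly(dA:dT) 62.5% were higher and 25% lower, where 26.6% and 26.2% of all genes tested were. Atf3, a stress-induced factor of the same family as ATF4, changed most of the 40 genes. It had 275, 271 and 269 CPM after poly(I:C), 73.6, 71.1 and 72.8 CPM after poly(dA:dT), and 11.8, 11.3 and 11.6 CPM in mock cells. No library of a group reached the level of any library of another group. Against mock cells the rise was 23.5-fold after poly(I:C) (log2 fold change 4.55 ± 0.04 SE, adjusted p = 5.32e-145, edgeR) and 6.26-fold after poly(dA:dT) (2.65 ± 0.05, adjusted p = 1.33e-97). Poly(I:C) exceeded poly(dA:dT) by 3.75-fold.

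Atf4 itself changed far less. It had 499, 500 and 484 CPM after poly(I:C), 504, 493 and 498 CPM after poly(dA:dT), and 407, 397 and 391 CPM in mock cells. Every library of either mimic lay above every mock library, and the 2 mimics overlapped each other. The log2 fold change against mock was 0.31 ± 0.02 after poly(I:C) and 0.32 ± 0.02 after poly(dA:dT) (edgeR's adjusted p = 1.03e-30 for poly(I:C) and 1.73e-31 for poly(dA:dT)). Between the mimics the difference was -0.01 on the log2 scale, with a 95% interval of -0.05 to 0.03. Per length, Atf3 stood at 0.602 ± 0.00799 of the Atf4 level after poly(I:C), 0.159 ± 0.00111 after poly(dA:dT) and 0.0318 ± 0.000647 in mock cells (ratio of RPKM, SD, n = 3 each). ATF4 protein was not measured.

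Trib3, a pseudokinase that binds ATF4 and lowers its activity, rose after both mimics. It had 71.8, 70 and 71.8 CPM after poly(I:C), 74.3, 72.4 and 71 CPM after poly(dA:dT), and 28.6, 27.2 and 25.9 CPM in mock cells. Every mimic library lay well above every mock library, and the 2 mimics overlapped. The rise was 2.6-fold after poly(I:C) and 2.65-fold after poly(dA:dT), and the difference between the mimics was -0.03 (log2, 95% interval -0.11 to 0.05). Ddit3, which encodes the pro-apoptotic factor CHOP, had 86.4, 83 and 79.3 CPM after poly(I:C), 75.9, 69.9 and 73.3 CPM after poly(dA:dT), and 55, 52.3 and 53.8 CPM in mock cells. All 3 groups were separate, with log2 fold changes of 0.63 ± 0.04 after poly(I:C) and 0.44 ± 0.04 after poly(dA:dT), and 0.19 ± 0.04 between them.

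The C/EBP partners of ATF4 did not move together. Cebpg averaged 96.9 ± 1.3 CPM after poly(I:C), 75.1 ± 2.42 CPM after poly(dA:dT) and 60.8 ± 2.33 CPM in mock cells, a rise of 0.68 after poly(I:C) and 0.31 after poly(dA:dT) on the log2 scale. Cebpb, which also drives inflammatory genes, averaged 28.8 ± 2.52 CPM after poly(I:C), 24.2 ± 2.07 CPM after poly(dA:dT) and 24.3 ± 1.12 CPM in mock cells; its rise of 0.23 after poly(I:C) passed the test and its value of -0.01 after poly(dA:dT) did not (adjusted p = 0.87, edgeR). Nupr1, a small stress-induced nuclear protein, went in opposite directions. It had 90.2, 88.1 and 97.7 CPM after poly(I:C), 65.4, 59 and 63.3 CPM after poly(dA:dT), and 73.1, 69.3 and 73 CPM in mock cells. The 3 groups did not overlap, and the log2 fold change was 0.35 ± 0.04 after poly(I:C) and -0.20 ± 0.04 after poly(dA:dT), with poly(I:C) above poly(dA:dT) by 0.55 ± 0.04 (adjusted p = 5.15e-28, edgeR). Atf5, another factor of the ATF4 group, averaged 73.2 ± 1.28 CPM after poly(I:C), 70.4 ± 1.43 CPM after poly(dA:dT) and 75.3 ± 2.69 CPM in mock cells. Its fall of -0.10 after poly(dA:dT) was no longer called without mock replicate 2 (-0.07), poly(dA:dT) replicate 1 (-0.08) or poly(dA:dT) replicate 2 (-0.10), or when scaled to total counts (-0.02) or by upper-quartile factors (-0.07). With total counts the regulators split into 5 higher and 1 lower after poly(dA:dT), where 35.3% of all genes tested were higher and 16.9% lower. The library kit does not mark the strand, and other genes on the opposite strand cover 20.7% of the exon bases of Cebpb, 4.73% of those of Ddit3 and 4.11% of those of Atf5, so part of these counts may belong to their neighbours.

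**Figure D2:**
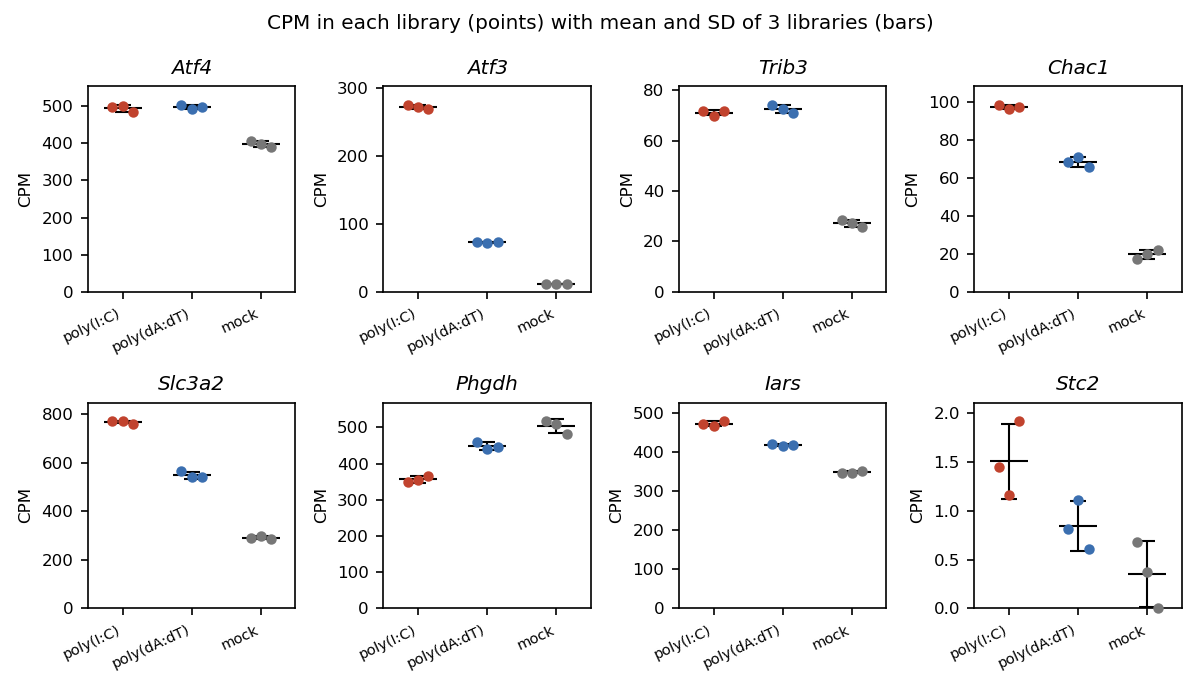
CPM in each library for Atf4, Trib3 and the member with the largest change in each role, 1 panel a gene with its own linear axis from 0, with poly(I:C), poly(dA:dT) and mock from left to right, points for libraries and a bar for the mean with SD (n = 3). Atf3 and Chac1 step down from poly(I:C) through poly(dA:dT) to mock, Atf4 and Trib3 overlap between the mimics, and Phgdh runs the other way.

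The serine and mitochondrial one-carbon enzymes split. After poly(I:C), 2 of 6 were higher and 3 lower (median log2 fold change -0.08), and after poly(dA:dT) 2 were higher and 2 lower (median 0.00). Of all genes tested, 39.8% were higher and 36.3% lower after poly(I:C), and 26.6% and 26.2% after poly(dA:dT). When scaled to total counts the split was 3 higher and 2 lower after poly(I:C), and 3 higher and 1 lower after poly(dA:dT). All genes tested then gave 47.2% higher and 28.7% lower after poly(I:C), and 35.3% and 16.9% after poly(dA:dT). The 3 genes that make serine from 3-phosphoglycerate were the ones that fell after poly(I:C). Phgdh, the first of these enzymes, had 349, 354 and 366 CPM after poly(I:C), 459, 439 and 447 CPM after poly(dA:dT), and 517, 510 and 481 CPM in mock cells. The 3 groups did not overlap. Its log2 fold change was -0.50 ± 0.02 after poly(I:C) (adjusted p = 1.74e-45, edgeR) and -0.17 ± 0.02 after poly(dA:dT) (adjusted p = 1.82e-11).

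Psat1, the second enzyme, had 555, 552 and 544 CPM after poly(I:C), 668, 661 and 679 CPM after poly(dA:dT), and 700, 701 and 707 CPM in mock cells. All groups were again separate, but poly(dA:dT) lay close to mock. The log2 fold change was -0.35 ± 0.02 after poly(I:C) and -0.07 ± 0.02 after poly(dA:dT), and the fall after poly(dA:dT) was lost when libraries were scaled to total counts (0.0048). Psph, the last enzyme, averaged 116 ± 4.07 CPM after poly(I:C), 124 ± 4.44 CPM after poly(dA:dT) and 128 ± 5.35 CPM in mock cells, a fall of -0.15 (log2) after poly(I:C) that became -0.04 and was not called with total counts; -0.05 after poly(dA:dT) did not pass the test. Of the exon bases of Psph, 10.4% are overlapped by Cct6a on the opposite strand. Phgdh carries a larger doubt, since 47.8% of its 50-base stretches also occur in transcripts of other annotated genes, mostly predicted genes such as Gm7901, and no source used here says how the counting treated such reads.

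The mitochondrial enzymes that use serine or its one-carbon unit were higher or within error. Shmt2, which splits serine into glycine and a one-carbon unit, averaged 406 ± 6.7 CPM after poly(I:C), 378 ± 4.37 CPM after poly(dA:dT) and 350 ± 2.67 CPM in mock cells, a rise of 0.21 ± 0.02 after poly(I:C) and 0.11 ± 0.02 after poly(dA:dT) on the log2 scale. Aldh1l2, which oxidises formyl-tetrahydrofolate, rose by 0.09 after poly(I:C) and 0.15 after poly(dA:dT), and the rise after poly(I:C) was called neither by DESeq2 (0.06) nor without the filter on low counts (0.06). Its exons are covered to 14.1% by a gene on the opposite strand. Mthfd2, a common ATF4 target that oxidises methylene-tetrahydrofolate, averaged 163 ± 3.59 CPM after poly(I:C), 170 ± 4.07 CPM after poly(dA:dT) and 164 ± 0.95 CPM in mock cells and passed the test against mock after neither mimic (95% interval of the log2 fold change -0.06 to 0.05 after poly(I:C) and -0.00 to 0.11 after poly(dA:dT)). With total counts it was called higher after both (0.11 after poly(I:C) and 0.13 after poly(dA:dT)), and after poly(dA:dT) also with upper-quartile factors (0.07) and with a stricter filter of 50 counts in 3 libraries (0.06). Per length, Shmt2 stood at 0.911 ± 0.00636 of the Phgdh level after poly(I:C), 0.675 ± 0.0157 after poly(dA:dT) and 0.557 ± 0.0183 in mock cells (ratio of RPKM, SD, n = 3 each), and the ratios of the 3 groups did not overlap.

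Of the 6 other amino acid enzymes tested, 5 were higher after poly(I:C) and 5 after poly(dA:dT), with none lower and median log2 fold changes of 0.20 after poly(I:C) and 0.30 after poly(dA:dT). Of all genes tested, 39.8% were higher and 36.3% lower after poly(I:C), and 26.6% and 26.2% after poly(dA:dT). Chac1, which breaks down glutathione, led these enzymes. It had 98.8, 96.4 and 97.5 CPM after poly(I:C), 68.7, 71.2 and 65.8 CPM after poly(dA:dT), and 17.2, 20.2 and 22.1 CPM in mock cells. No groups overlapped. The rise against mock was 4.98-fold after poly(I:C) (log2 fold change 2.32 ± 0.05, adjusted p = 3.91e-83, edgeR) and 3.5-fold after poly(dA:dT) (1.81 ± 0.05, adjusted p = 3.38e-67). Poly(I:C) exceeded poly(dA:dT) by 1.42-fold.

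The others moved by less than 1.5-fold. Gpt2, which makes glutamate and pyruvate from alanine in mitochondria and the reverse, averaged 128 ± 2.17 CPM after poly(I:C), 127 ± 7.93 CPM after poly(dA:dT) and 94.5 ± 2.14 CPM in mock cells (1.36-fold after poly(I:C) and 1.35-fold after poly(dA:dT), against mock). Cth, which makes cysteine from cystathionine, averaged 34.2 ± 1.61 CPM after poly(I:C), 38.4 ± 0.229 CPM after poly(dA:dT) and 29.1 ± 1.85 CPM in mock cells and was higher after poly(dA:dT) (0.40 ± 0.05 on the log2 scale) than after poly(I:C) (0.24 ± 0.06), a difference that passed the test (adjusted p = 0.00693, edgeR). Aldh18a1, the first enzyme of proline synthesis from glutamate, rose by 0.16 after poly(I:C) and 0.20 after poly(dA:dT). Pycr1, the last enzyme of that path, had a log2 value of 0.05 after poly(I:C) and -0.04 after poly(dA:dT) and passed the test after neither, but was called higher after poly(I:C) with total counts (0.17). Asns, which makes asparagine and is a classic ATF4 target, averaged 250 ± 7.04 CPM after poly(I:C), 250 ± 3.75 CPM after poly(dA:dT) and 232 ± 1.99 CPM in mock cells. Its rise was 1.08-fold after poly(I:C) and 1.08-fold after poly(dA:dT) (log2 fold change 0.11 ± 0.02 after poly(I:C) and 0.11 ± 0.02 after poly(dA:dT)), small but outside the spread of the replicates.

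All 5 transporters were higher after poly(I:C), and 4 after poly(dA:dT), with median log2 fold changes of 0.34 after poly(I:C) and 0.26 after poly(dA:dT). Of all genes tested, 39.8% were higher after poly(I:C) and 26.6% after poly(dA:dT). Slc3a2 encodes the 4F2 heavy chain, which carries several light chains, among them SLC7A5, to the cell surface. It had 771, 771 and 761 CPM after poly(I:C), 564, 541 and 540 CPM after poly(dA:dT), and 291, 298 and 284 CPM in mock cells. The groups were far apart, and Slc3a2 gained more CPM than any other member. The rise was 2.64-fold after poly(I:C) (log2 fold change 1.40 ± 0.02, adjusted p = 1.66e-113, edgeR) and 1.88-fold after poly(dA:dT) (0.91 ± 0.02, adjusted p = 2.4e-85). Slc7a5, its light chain for leucine and other large neutral amino acids, averaged 464 ± 6.39 CPM after poly(I:C), 479 ± 5.62 CPM after poly(dA:dT) and 429 ± 2.95 CPM in mock cells, a rise of 1.08-fold after poly(I:C) and 1.12-fold after poly(dA:dT). Per length, Slc3a2 stood at 1.74 ± 0.0366 times Slc7a5 after poly(I:C), 1.2 ± 0.0257 times after poly(dA:dT) and 0.713 ± 0.0161 times in mock cells (ratio of RPKM, SD, n = 3 each), without overlap between groups.

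Slc7a1, a transporter of arginine and lysine, averaged 219 ± 6.78 CPM after poly(I:C), 212 ± 3.05 CPM after poly(dA:dT) and 178 ± 6.68 CPM in mock cells, a log2 rise of 0.30 after poly(I:C) and 0.26 after poly(dA:dT). Slc6a9, a glycine transporter, rose by 0.34 after poly(I:C) and 0.39 after poly(dA:dT), with 30.2% of its exon bases overlapped by genes on the opposite strand. Slc7a3, another cationic amino acid transporter, was at a low level of 2.35 ± 0.593 CPM after poly(I:C), 1.51 ± 0.131 CPM after poly(dA:dT) and 1.42 ± 0.355 CPM in mock cells. Its rise of 0.73 ± 0.24 after poly(I:C) was not called without mock replicate 1 (0.52) or poly(I:C) replicate 3 (0.54), and 0.11 ± 0.25 after poly(dA:dT) did not pass the test.

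The genes of tRNA charging and export moved by small steps in both directions. After poly(I:C), 7 of 11 were higher and 4 lower (median log2 fold change 0.11), and after poly(dA:dT) 7 were higher and none lower (median 0.08). In percent, 63.6% were higher and 36.4% lower after poly(I:C), where 39.8% and 36.3% of all genes tested were. The share lower was thus close to that of all genes. After poly(dA:dT) 63.6% were higher, where 26.6% of all genes tested were higher and 26.2% lower. The 4 lower after poly(I:C), Wars, Gars, Sars and Xpot, were not called and had positive signs (0.02, 0.02, 0.03 and 0.05) when libraries were scaled to total counts, so their direction depends on the scaling. Under that scaling all 11 were called higher after poly(dA:dT), where 35.3% of all genes tested were. Iars, the synthetase for isoleucine, changed most. It had 473, 468 and 480 CPM after poly(I:C), 422, 417 and 419 CPM after poly(dA:dT), and 347, 348 and 353 CPM in mock cells. The 3 groups did not overlap, and the log2 fold change was 0.44 ± 0.02 after poly(I:C) (adjusted p = 4.16e-45, edgeR) and 0.26 ± 0.02 after poly(dA:dT) (adjusted p = 2.15e-23).

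Eprs, which charges glutamate and proline, rose by 0.29 after poly(I:C) and 0.17 after poly(dA:dT) on the log2 scale, and Tars, for threonine, by 0.27 after poly(I:C) and 0.15 after poly(dA:dT). Yars, for tyrosine, rose by 0.16 after poly(I:C) and 0.14 after poly(dA:dT), Lars, for leucine, by 0.11 after poly(I:C) and 0.08 after poly(dA:dT), and Aars, for alanine, by 0.09 after poly(I:C) and 0.14 after poly(dA:dT). Nars, for asparagine, rose by 0.15 after poly(I:C) and 0.06 after poly(dA:dT), and the rise after poly(dA:dT) was not called when replicate 2 of mock (0.05) or of poly(dA:dT) (0.05) was left out, by DESeq2 (0.04) or with its size factors (0.04). Wars, for tryptophan, fell by 0.10 after poly(I:C), a call lost also without mock replicate 2 (-0.07), with the filter of 50 counts (-0.05) and with upper-quartile factors (-0.06). Gars, for glycine, fell by 0.10, and Sars, for serine, by 0.08, the call of Sars lost also with the filter of 50 counts (-0.04). Xpot, which exports tRNA from the nucleus, fell by 0.07, a call lost also without poly(I:C) replicate 1 (-0.06), with the filter of 50 counts (-0.02) and with upper-quartile factors (-0.03). After poly(dA:dT) these 4 had log2 values of 0.00, 0.00, 0.04 and 0.02 and did not pass the test, but with total counts Wars (0.08), Gars (0.08), Sars (0.12) and Xpot (0.10) all passed it as higher. Sars also passed it after poly(dA:dT) with the filter of 50 counts (0.05), with upper-quartile factors (0.06), in a fit of the 2 groups alone (0.05) and without mock replicate 1 (0.06). Summed over the 10 synthetases, the level was 4257 ± 39.5 CPM after poly(I:C), 4207 ± 5.77 CPM after poly(dA:dT) and 3881 ± 8.38 CPM in mock cells (SD, n = 3 each). Other genes' transcripts hold 14% of the 50-base stretches of Xpot, 13.8% of those of Aars and 7.15% of those of Iars.

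The 3 other targets differed. Stc2, a secreted glycoprotein, was barely detected, with 30, 27 and 32 counts after poly(I:C), 17, 26 and 14 after poly(dA:dT), and 19, 9 and 0 in mock cells. The poly(I:C) libraries lay above mock in CPM, while poly(dA:dT) and mock overlapped. Its log2 fold change was 1.91 ± 0.37 after poly(I:C) (adjusted p = 2.32e-06, edgeR) and 1.11 ± 0.41 after poly(dA:dT) (adjusted p = 0.0161), and the second call was lost with DESeq2 (1.16), without mock replicate 3 (0.65) and without poly(dA:dT) replicate 2 (0.85). Vldlr, a lipoprotein receptor, averaged 54.7 ± 3.94 CPM after poly(I:C), 67.2 ± 3.79 CPM after poly(dA:dT) and 68.6 ± 1.82 CPM in mock cells and fell by 0.32 on the log2 scale after poly(I:C); its value after poly(dA:dT) was -0.03 and did not pass the test. Eif4ebp1, which holds back cap-dependent translation, averaged 128 ± 5.89 CPM after poly(I:C), 139 ± 4.9 CPM after poly(dA:dT) and 146 ± 6.43 CPM in mock cells. It fell by 0.20 after poly(I:C) and by 0.07 after poly(dA:dT). The second call was lost without mock replicate 1 (-0.06), mock replicate 2 (-0.06), poly(dA:dT) replicate 1 (-0.08) or poly(dA:dT) replicate 2 (-0.05). It was not called either by DESeq2 (-0.09), with the filter of 50 counts (-0.06), with upper-quartile factors (-0.05) or with total counts (0.00011), where the 3 targets split into 1 higher and none lower.

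**Figure D3:**
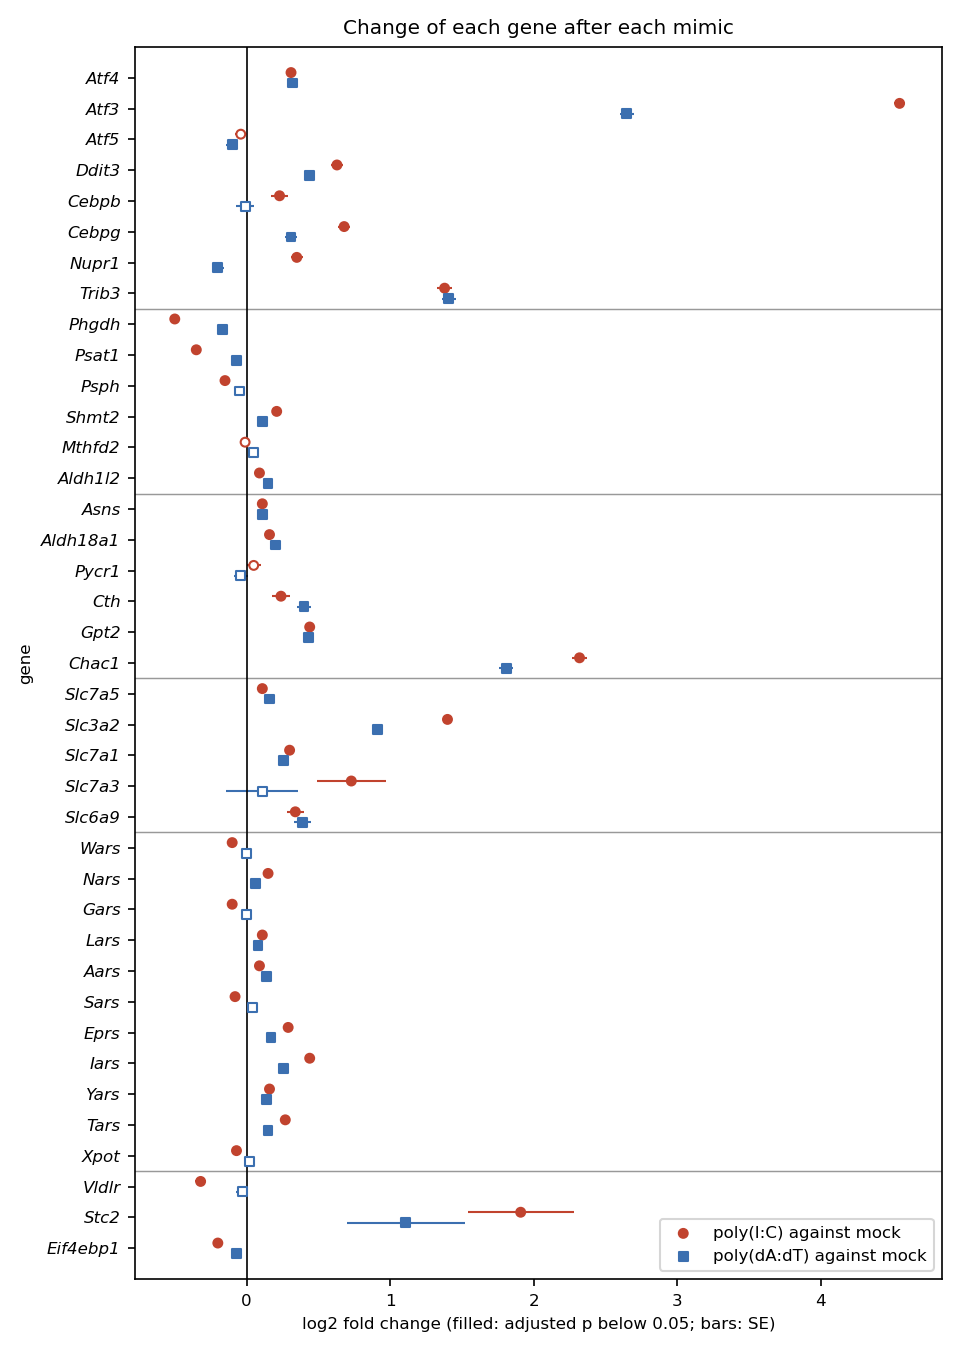
Log2 fold change against mock of the 39 tested members, by role, after poly(I:C) and after poly(dA:dT), with bars for the SE and filled points where the adjusted p is under 0.05. Most points lie close to 0, and Atf3 reaches 4.55 after poly(I:C) and 2.65 after poly(dA:dT).

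Set against each other, poly(I:C) and poly(dA:dT) at the same dose and time differed in 27 of the 39 members, where 63.4% of all genes tested did. By edgeR's quasi-likelihood test 14 were higher after poly(I:C) and 13 lower, where 31.3% and 32.1% of all genes tested were, against 35.9% and 33.3% of the members. The median log2 difference was 0.01, beside 0.00 for all genes, and Atf3 alone differed by at least 2-fold, where 7.62% of all genes were at least 2-fold higher. The CPM values did not overlap in 29 members, against 66.1% of all genes. Scaled to total counts, 19 were higher and 7 lower, where 35.1% and 28.1% of all genes tested were.

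The regulators leaned to poly(I:C), with 5 of 8 higher and none lower: Atf3, Nupr1 (0.55), Cebpg (0.37), Cebpb (0.25) and Ddit3 (0.19). Of all genes tested, 31.3% were higher after poly(I:C) than after poly(dA:dT) and 32.1% lower. The serine and one-carbon enzymes leaned to poly(dA:dT), with 1 higher after poly(I:C) and 4 lower. Phgdh was lower after poly(I:C) by 0.33 and Psat1 by 0.28 on the log2 scale, outside the spread of the replicates. Psph was lower by 0.10, a call lost without poly(dA:dT) replicate 3 (-0.07), with the filter of 50 counts (-0.07) and with total counts (-0.06), and Mthfd2 by 0.06, a call lost without poly(I:C) replicate 3 (-0.05) or poly(dA:dT) replicate 2 (-0.05), by DESeq2 (-0.07), with the filter of 50 counts (-0.03), with upper-quartile factors (-0.05) and with total counts (-0.02). With total counts, 1 was higher and 2 lower.

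Of the tRNA genes, 4 were higher after poly(I:C) (Iars, Tars, Eprs and Nars, by 0.09 to 0.18 on the log2 scale) and 5 lower (Sars, Gars, Wars, Xpot and Aars, by -0.12 to -0.05), and with total counts 6 were higher and 2 lower. In percent, 36.4% were higher and 45.5% lower, where 31.3% and 32.1% of all genes tested were. With total counts 35.1% of all genes tested were higher and 28.1% lower. The call of Aars was lost without poly(I:C) replicate 2 (-0.04), with the filter of 50 counts (-0.02) and with total counts (-0.01), that of Wars with the filter (-0.07) and total counts (-0.06), and that of Xpot with total counts (-0.05). Among the transporters Slc3a2 was higher by 0.49 and Slc7a3 by 0.62, the second not called without poly(I:C) replicate 3 (0.43) or poly(dA:dT) replicate 2 (0.55) or by DESeq2 (0.62). Slc7a5 was lower by 0.05 (adjusted p = 0.0416, edgeR), a call lost without poly(I:C) replicates 1 (-0.04) and 2 (-0.04) or poly(dA:dT) replicates 1 (-0.05) and 2 (-0.04), each in turn, with the replicate number as a block (-0.05), with the filter of 50 counts (-0.01), with upper-quartile factors (-0.03) and with total counts (-0.01). The split of the transporters was 3 higher and none lower with total counts. Of the other enzymes Chac1 was higher and Cth lower, and with total counts 2 were higher and 1 lower. Stc2 was higher by 0.80, a call lost without poly(I:C) replicate 1 (0.82) or 3 (0.62) or poly(dA:dT) replicate 1 (0.77) or 3 (0.61) and by DESeq2 (0.82), while Vldlr (-0.30) and Eif4ebp1 (-0.13) were lower. The 12 members not called included Atf4, Trib3, Asns, Gpt2, Lars and Yars, whose 95% intervals all lay within -0.11 and 0.07 on the log2 scale. With total counts Atf5 (0.09), Pycr1 (0.13), Slc7a1 (0.08), Lars (0.06) and Yars (0.06) were called higher after poly(I:C). The filter of 50 counts also called Atf5 (0.09), Pycr1 (0.12), Slc7a1 (0.08) and Lars (0.05), and Slc7a1 was called without poly(I:C) replicate 2 (0.07). Aldh1l2 was called lower with no filter (-0.08) and without any 1 mock replicate (-0.06 each). It was also called lower without poly(I:C) replicate 3 (-0.07) or poly(dA:dT) replicate 1 (-0.08). Aldh18a1 was called lower with no filter (-0.06).

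Levels per length placed the members over a wide range. In mock cells Phgdh stood highest at 202 ± 7.59 RPKM, followed by Atf4 at 169 ± 3.4, Psat1 at 165 ± 0.867 and Gars at 148 ± 1.45 (SD, n = 3 each). The libraries of Atf4 and Psat1 overlapped. After poly(I:C) the order at the top was Slc3a2 (217 ± 1.62 RPKM), Atf4 (210 ± 3.67), Phgdh (143 ± 3.37) and Gars (139 ± 2.34), and the libraries of Phgdh and Gars overlapped. After poly(dA:dT) Atf4 (211 ± 2.46 RPKM) stood above Phgdh (180 ± 4.12). The lengths cover all annotated exons of a gene, so genes with many annotated transcripts, such as Aars, come out low on this scale. All 40 members together held 9984 ± 52.7 CPM after poly(I:C), 9686 ± 23.9 CPM after poly(dA:dT) and 8684 ± 31.2 CPM in mock cells. A few genes weigh much in this sum. From mock cells to poly(I:C), Slc3a2 went from 291 to 767 CPM and Atf3 from 11.6 to 272. Phgdh went from 503 to 357 CPM and Psat1 from 702 to 550.

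The 12 members with the amino acid response element in a window and those without it there had like medians. Sites outside the windows were not searched, so members counted as without it may hold a site elsewhere. Whether the element bears on the change was not tested. After poly(I:C), 9 of 12 with the element were higher and 2 lower (median log2 fold change 0.22), and 12 of 19 without it were higher and 5 lower (median 0.23). After poly(dA:dT), 8 of 12 with it were higher and 1 lower (median 0.14), and 11 of 19 without it were higher and 3 lower (median 0.17). Of all genes tested, 39.8% were higher and 36.3% lower after poly(I:C), and 26.6% and 26.2% after poly(dA:dT). The element lies in Atf3 and Chac1, which rose most of the members after either mimic, and in Trib3, but also in Gars, Vldlr and Pycr1, which did not rise after either mimic, although with total counts Gars rose after poly(dA:dT) and Pycr1 after poly(I:C). The 8 members with no entry in the promoter table stand apart in this count.

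**Figure D4:**
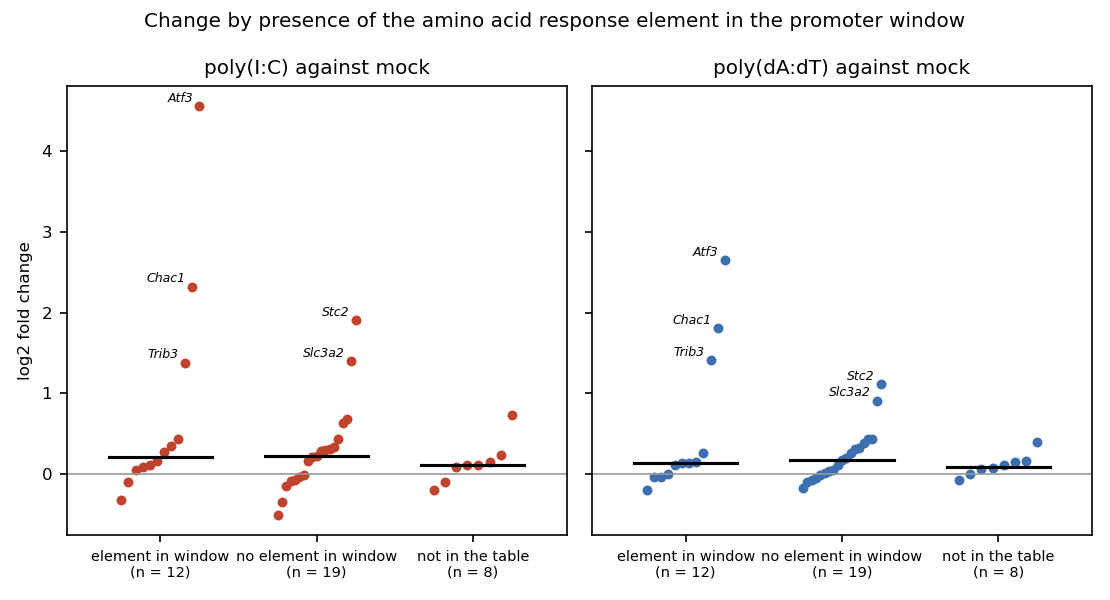
Log2 fold change against mock of the 39 tested members, split by whether the promoter window holds the amino acid response element, does not hold it, or is not in the table, for poly(I:C) at left and poly(dA:dT) at right, with a line at each median. The medians with and without the element are 0.22 and 0.23 after poly(I:C) and 0.14 and 0.17 after poly(dA:dT), and the highest points belong to Atf3.

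Genes around the ATF4 pathway that are no members were counted by the same test in 6 lists. Of all genes tested, 39.8% were higher and 36.3% lower after poly(I:C), and 26.6% and 26.2% after poly(dA:dT). Scaling to total counts made these shares 47.2% and 28.7% after poly(I:C), and 35.3% and 16.9% after poly(dA:dT). With the size factors of DESeq2, 3504 of the 14176 genes were higher and 4061 lower after poly(dA:dT). Of 10 genes for eIF2, its kinases and its phosphatases, 3 were higher and 7 lower after poly(I:C), and 2 higher and 3 lower after poly(dA:dT). With total counts 3 were higher and 3 lower after poly(I:C), Eif2s1 and Eif2s2 changing sign, and 4 higher and 3 lower after poly(dA:dT). With the size factors of DESeq2, 1 was higher and 5 lower after poly(dA:dT). Ppp1r15a (GADD34), the stress-induced subunit that brings a phosphatase to eIF2, averaged 327 ± 6.27 CPM after poly(I:C), 85.1 ± 1.75 CPM after poly(dA:dT) and 34 ± 1.19 CPM in mock cells, a rise of 9.63-fold after poly(I:C) and 2.51-fold after poly(dA:dT). Eif2ak2, which encodes PKR and is itself interferon-stimulated, averaged 244 ± 0.546 CPM after poly(I:C), 117 ± 0.913 CPM after poly(dA:dT) and 114 ± 4.65 CPM in mock cells. It rose 2.14-fold after poly(I:C), and its 1.03-fold value after poly(dA:dT) did not pass the test (adjusted p = 0.273, edgeR). With total counts Eif2ak2 was called higher after poly(dA:dT). Eif2ak3 (PERK) fell by 0.47 after poly(I:C) and by 0.31 after poly(dA:dT) on the log2 scale, and Impact, which restrains GCN2, by 0.53 after poly(I:C) and by 0.19 after poly(dA:dT). Eif2ak4 (GCN2), named after its values were seen, fell by 0.22 after poly(I:C), a call lost with total counts.

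Of 15 other targets of ATF4 and CHOP, 10 were higher and 5 lower after poly(I:C), and 11 higher and 3 lower after poly(dA:dT), or 11 higher and 1 lower after poly(dA:dT) with total counts. In percent, 66.7% were higher and 33.3% lower after poly(I:C), where 39.8% and 36.3% of all genes tested were. After poly(dA:dT) 73.3% were higher and 20% lower, where 26.6% and 26.2% of all genes tested were. Slc7a11, the cystine and glutamate exchanger that also pairs with the Slc3a2 heavy chain, averaged 19.4 ± 0.51 CPM after poly(I:C), 13.5 ± 1.19 CPM after poly(dA:dT) and 8.48 ± 0.938 CPM in mock cells (2.31-fold after poly(I:C) and 1.61-fold after poly(dA:dT)). The secreted factors Fgf21, Adm2 and Gdf15 rose 3.53-fold, 2.95-fold and 2.54-fold after poly(I:C), and 3.56-fold, 1.88-fold and 4.11-fold after poly(dA:dT). All 3 were low in mock cells, with 5, 4 and 2 counts for Fgf21, 76, 36 and 36 for Adm2, and 21, 21 and 17 for Gdf15. Ddit4, an inhibitor of mTORC1 named after its values were seen, went apart between the mimics: it averaged 62.3 ± 1.34 CPM after poly(I:C), 125 ± 5.53 CPM after poly(dA:dT) and 84 ± 2.64 CPM in mock cells, a log2 change of -0.43 ± 0.04 after poly(I:C) and 0.57 ± 0.03 after poly(dA:dT). Its level after poly(I:C) was 0.499 times that after poly(dA:dT) (adjusted p = 1.7e-59, edgeR).

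The 10 cytosolic tRNA synthetases outside the members split into 6 higher and 4 lower after poly(I:C), and 4 higher and 4 lower after poly(dA:dT), or 5 higher and 2 lower after poly(dA:dT) with total counts. In percent, 60% were higher and 40% lower after poly(I:C), where 39.8% and 36.3% of all genes tested were. After poly(dA:dT) 40% were higher and 40% lower, where 26.6% and 26.2% of all genes tested were. Cars, for cysteine, rose 1.53-fold after poly(I:C) and 1.3-fold after poly(dA:dT), and Vars, for valine, 1.39-fold after poly(I:C) and 1.11-fold after poly(dA:dT). Qars, for glutamine, fell by 0.34 after poly(I:C) and by 0.17 after poly(dA:dT) on the log2 scale, and Hars, for histidine, by 0.31 after poly(I:C) and by 0.12 after poly(dA:dT), the fall after poly(dA:dT) not called with total counts. Of the 17 mitochondrial synthetases 11 were higher and 3 lower after poly(I:C), and 9 higher and 1 lower after poly(dA:dT), led by Ears2 (1.7-fold after poly(I:C) and 1.21-fold after poly(dA:dT)) and Nars2 (1.52-fold after poly(I:C) and 1.24-fold after poly(dA:dT)). DESeq2 called 3 of the 17 higher after poly(dA:dT) and not Ears2, beside 2890 of all 25085 genes it fitted. By edgeR 64.7% of the 17 were higher and 17.6% lower after poly(I:C), where 39.8% and 36.3% of all genes tested were. After poly(dA:dT) 52.9% were higher and 5.88% lower, where 26.6% and 26.2% of all genes tested were.

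Of 10 genes of the cytosolic folate cycle, 5 were higher and 2 lower after poly(I:C), and 5 higher and 1 lower after poly(dA:dT), which became 6 higher and 0 lower with total counts and 3 higher and 2 lower with the size factors of DESeq2. In percent, 50% were higher and 20% lower after poly(I:C), where 39.8% and 36.3% of all genes tested were. After poly(dA:dT) 50% were higher and 10% lower, where 26.6% and 26.2% of all genes tested were. Mtr, which makes methionine from homocysteine, rose 1.54-fold after poly(I:C) and 1.27-fold after poly(dA:dT). Shmt1, the cytosolic counterpart of Shmt2, rose 1.29-fold after poly(I:C) and 1.07-fold after poly(dA:dT), the rise after poly(dA:dT) not called with the size factors of DESeq2. Atic, which uses a one-carbon unit in purine synthesis, fell by 0.25 after poly(I:C) and by 0.10 after poly(dA:dT) on the log2 scale.

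Most genes of the unfolded protein response outside ATF4 went the other way. Of 20, 15 were lower and 4 higher after poly(I:C) (median log2 fold change -0.63), and 16 lower and 3 higher after poly(dA:dT) (median -0.18). In percent, 75% were lower after poly(I:C) and 80% after poly(dA:dT), where 36.3% and 26.2% of all genes tested were. With total counts 10 were lower and 4 higher after poly(dA:dT). The chaperone gene Hsp90b1 averaged 345 ± 7.23 CPM after poly(I:C), 536 ± 2.44 CPM after poly(dA:dT) and 626 ± 17.9 CPM in mock cells. Hspa5 (BiP), the main chaperone of the endoplasmic reticulum, named after its values were seen, averaged 608 ± 9.33 CPM after poly(I:C), 937 ± 5.6 CPM after poly(dA:dT) and 1048 ± 7.67 CPM in mock cells. It fell by 0.78 after poly(I:C) and by 0.16 after poly(dA:dT) on the log2 scale. Dnajc3, a co-chaperone that also inhibits eIF2 kinases, fell by 0.84 after poly(I:C) and by 0.32 after poly(dA:dT), and Sel1l, of the degradation machinery, by 0.79 after poly(I:C) and by 0.25 after poly(dA:dT). Herpud1, a degradation factor that ATF4 can also induce, was the largest exception, at 154 ± 2.28 CPM after poly(I:C), 130 ± 2.04 CPM after poly(dA:dT) and 81.9 ± 1.93 CPM in mock cells (1.89-fold after poly(I:C) and 1.58-fold after poly(dA:dT), against mock). Ern1, Atf6 and Xbp1, named after their values were seen, were also higher after poly(I:C), by 0.49, 0.17 and 0.10 (log2). DESeq2 did not call that rise of Xbp1. After poly(dA:dT) Ern1 rose by 0.30 and Xbp1 by 0.22, and Atf6 (0.07) was called only with total counts or upper-quartile factors.

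**Figure D5:**
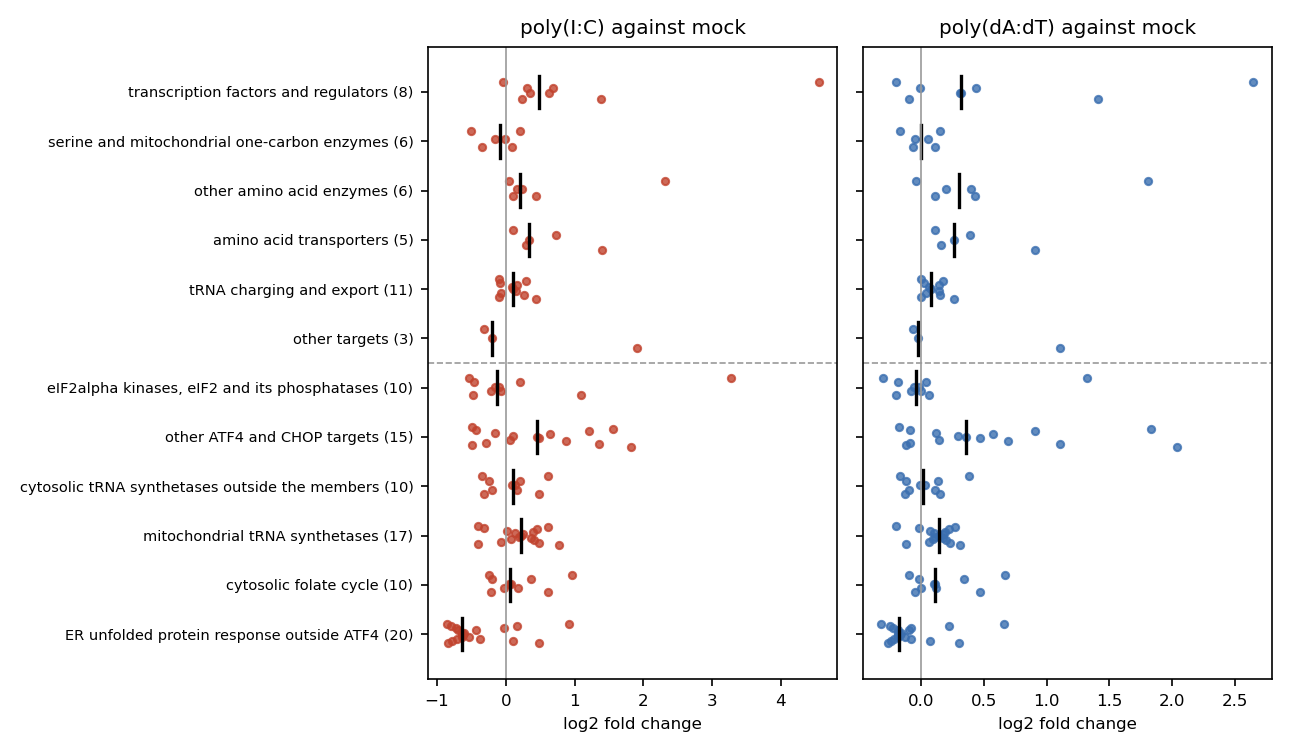
Log2 fold change against mock of the genes of each role and of each list around the pathway, after poly(I:C) and after poly(dA:dT), with the single genes as points, a black stroke at each median, and a grey line at 0. The regulators have medians of 0.49 after poly(I:C) and 0.32 after poly(dA:dT), the serine and one-carbon enzymes -0.08 after poly(I:C) and 0.00 after poly(dA:dT), and the unfolded protein response list -0.63 after poly(I:C) and -0.18 after poly(dA:dT).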

How the data were processed

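RNA was measured in 9 libraries of Actb-knockout MEFs, 3 per group. The authors deposited whole-number counts of reads per Ensembl gene, and these were used unchanged. The submitters' processing notes name TopHat2 2.1.0, HTSeq and DESeq2, with build GRCm38.p4. How the counting handled strand and multiply mapped reads, and which annotation it used, are not given in the sources here. Per the labels' protocols, libraries were made with a TruSeq v2 kit, which does not mark the strand. Of 46603 identifiers, 46091 were matched to GENCODE release 21 for mouse, which gave symbols, positions and exon lengths, and genes with no symbol carried 0.0588% of the counts.

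The main test was the quasi-likelihood F test of edgeR 4.0.16 under R 4.3.3 (robust, two-sided, TMM scaling, filterByExpr by group, 14176 genes, prior count 0.125). A single fit held the 9 libraries, with 3 group means and 6 residual degrees of freedom, and p-values were adjusted over all genes tested by the Benjamini-Hochberg method at 0.05. CPM used TMM-scaled library sizes. The SE of a log2 fold change is its absolute value divided by the square root of F, and 95% intervals come from it. A count of 0 allows up to 3 counts, or 0.107 to 0.18 CPM, for counting error only. Replicates of a group differed by more than sampling noise (chi-square per degree of freedom 1.64 to 2.1), so each library was counted once.

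The members and lists were chosen with earlier results of these data known. All members may be named. Per-library values are given for Atf4 and for the member with the largest change in each role, and for Trib3, Ddit3, Nupr1 and Psat1, which were added after their values were seen. Of each list, up to 4 called genes with the largest change after poly(I:C) may be named. The values of 1 gene of the folate list are not reported here. Promoter windows and their positions come from RefSeq, build GRCm38.p6, searched with Python 3.11.15. The share of 50-base stretches found in other genes comes from the GENCODE transcripts. Alternatives were DESeq2 1.42.0, other scalings and filters, a fit of the 2 groups compared, the replicate number as a block, and each library left out.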

Additional observations from a re-analysis of the deposited data

How the results depend on the processing

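Of 1983 recomputed member values, 1842 kept their direction and their side of the threshold, 68 lost a call, 30 gained one and 43 changed sign with no call in either. Over the alternatives run for each, 30 of 39 members stayed on their side of the threshold, called or not, in poly(I:C) against mock. In poly(dA:dT) against mock 29 did, and in poly(I:C) against poly(dA:dT) 24. Those that also kept their sign numbered 29 in poly(I:C) against mock, 24 in poly(dA:dT) against mock and 20 between the mimics. There were 17 alternatives, and Slc7a3 and Stc2 were not tested under the filter of 50 counts. Other causes than those given in this section were not tested. With total counts the members called lower numbered 4 in poly(I:C) against mock, 2 in poly(dA:dT) against mock and 7 between the mimics, and the median log2 values were 0.275 for poly(I:C), 0.216 for poly(dA:dT) and 0.0478 between the mimics. In the same order, all genes tested gave 28.7%, 16.9% and 28.1% lower and medians of 0.15, 0.08 and 0.04. The signs then changed in poly(I:C) against mock for Atf5 (0.07), Mthfd2 (0.11), Wars (0.02), Gars (0.02), Sars (0.03) and Xpot (0.05). They changed in poly(dA:dT) against mock for Cebpb (0.06), Psat1 (0.0048), Psph (0.02), Pycr1 (0.04), Vldlr (0.05) and Eif4ebp1 (0.00011), and between the mimics for Atf4 (0.03), Trib3 (0.01) and Aldh18a1 (0.00063). With upper-quartile factors 3 members were lower in poly(dA:dT) against mock, the medians were 0.193 for poly(I:C) and 0.163 for poly(dA:dT), and Mthfd2 (0.02, poly(I:C) against mock), Cebpb (0.01, poly(dA:dT) against mock) and Atf4 (0.00044, between the mimics) changed sign. Of all 14176 genes, 3291 were lower in poly(dA:dT) against mock with these factors, and the medians were 0.07 for poly(I:C) and 0.03 for poly(dA:dT). With DESeq2 the medians against mock were 0.135 for poly(I:C) and 0.122 for poly(dA:dT), with Wars (-0.02) and Gars (-0.02) reversed after poly(dA:dT) and Asns (-0.01) between the mimics. Over all 25085 genes fitted by DESeq2 the medians were 0.16 for poly(I:C), above that of the members, and 0.00 for poly(dA:dT). Its size factors in edgeR gave medians of 0.144 for poly(I:C) and 0.124 for poly(dA:dT), with Wars at -0.01 and Gars at -0.02 after poly(dA:dT). A filter of 50 counts in 3 libraries, which leaves 37 members by removing Slc7a3 and Stc2, gave medians of 0.199 for poly(I:C), 0.153 for poly(dA:dT) and, between the mimics, 0.0344 with 8 lower. Of the 11717 genes that passed this filter, 4007 were lower between the mimics. Under it Atf5 (0.0019) and Mthfd2 (0.03) changed sign in poly(I:C) against mock, and Atf4 (0.02) and Trib3 (0.01) between the mimics. With no filter the median was 0.133 in poly(I:C) against mock and -0.0175 between the mimics, where Asns (-0.02), Gpt2 (-0.02), Lars (-0.003) and Yars (-0.01) changed sign. Over all 25085 unfiltered genes it was 0.15 in poly(I:C) against mock and 0.08 between the mimics, above the members in both. A fit of the 2 groups alone gave a median of 0.145 in poly(I:C) against mock. Leaving out 1 library at a time, the members lower in poly(dA:dT) against mock numbered 3 to 5. Of all genes, 3405 to 3760 were lower in these fits, which tested 14307 to 14536 genes. The members' medians were 0.155 to 0.18 in poly(I:C) against mock, 0.126 to 0.149 in poly(dA:dT) against mock and -0.0073 to 0.0082 between the mimics. In poly(dA:dT) against mock the log2 values ranged from -0.09 to 0.26 for Slc7a3, -0.03 to 0.04 for Wars, -0.0028 to 0.01 for Gars, -0.08 to 0.04 for Cebpb, -0.07 to 0.02 for Pycr1 and -0.07 to 0.01 for Vldlr. Mthfd2 ranged from -0.02 to 0.0042 in poly(I:C) against mock, and between the mimics Asns from -0.02 to 0.02, Gpt2 from -0.03 to 0.06 and Yars from -0.02 to 0.04. With the replicate number as a block, 27 members were higher and 9 lower in poly(I:C) against mock, 24 and 5 in poly(dA:dT) against mock, and 14 and 12 between the mimics, where Slc7a5 lost its call, and no other member's call changed. Of all 14176 genes, 5615 were then higher and 5109 lower in poly(I:C) against mock. In poly(dA:dT) against mock 3723 and 3661 were, and between the mimics 4381 and 4524. Samples that share a number were not paired, since correlations of their deviations lay between -0.0138 and 0.0225 and 4 of 9 libraries correlated best with their own number. Depth limits Cbs, Slc7a3 and Stc2, which had at most 51 counts in a library.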
